A study of Mus musculus with 12 samples.

Results

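Cultured Eµ-myc B lymphoma cells of the mouse were exposed to interferon-γ (IFN-γ) for 24 h, and their RNA was compared with that of unstimulated cells of the same line. The comparison uses 6 of the 12 samples, 3 in each group, and 14299 of the 53379 genes counted were abundant enough to test. All samples share the C57BL/6 strain and the Eµ-myc transgene, which drives the Myc oncogene from an immunoglobulin heavy chain enhancer. The 24 h group received recombinant mouse IFN-γ at 5 ng/mL, and the unstimulated group received none. The remaining samples, 3 each, had IFN-γ neutralised after 1 h or 6 h with 50 µg/mL of the antibody XMG1.2, and they enter here as reference levels. Stimulated cells were harvested 24 h after IFN-γ was added, in all of these groups. The labels leave unsaid whether antibody was added to unstimulated or 24 h cells, and whether replicates were separate cultures. The p-values thus measure the spread between these samples alone, and this may be technical. The cells were grown in culture with serum, and the labels name no clone or individual tumour.

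IFN-γ is made by activated T and NK cells and binds a receptor of 2 chains, encoded by Ifngr1 and Ifngr2, that signals through the kinases JAK1 and JAK2. These phosphorylate STAT proteins, which dimerise and bind GAS elements in DNA, while IRF proteins bind interferon-stimulated response elements (ISRE). In B cells and B cell tumours the cytokine is best known for raising antigen presentation and the interferon-inducible GTPases, and the genes outside those programmes, together with the genes that fell, are described here.

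The 12 libraries held 49440358 to 67096610 counts, and the first principal component, with 44.1% of the variance, set the 24 h libraries apart from the other 9. The second, with 7.84%, set 6 h replicate 3 apart, at -39.1 where all other libraries ran from -0.443 to 11.8. The 6 h levels given below include this library. All 8 B cell markers listed were counted in each of the 6 libraries, and their summed level was 2506 to 2570.4 CPM (library-scaled counts with TMM factors) in unstimulated and 2373 to 2379.5 CPM in 24 h libraries. T and NK cell markers summed to 1.74 to 2.58 and 1.64 to 2.31 CPM, with 7 of 15 at 0 in all 6 libraries, among them Cd4, Cd8a and Gzmb. Macrophage, monocyte and granulocyte markers summed to 5.94 to 7.11 and 5.57 to 6.44 CPM, with 9 of 19 at 0, among them Ly6g, S100a8 and Elane. Stromal, endothelial and erythroid markers had 7 of 17 at 0 and summed to 60.3 to 61.3 and 90.2 to 93.96 CPM, of which Pecam1, an adhesion molecule also made by blood cells, gave 58.02 ± 0.804 and 89.4 ± 2.16 CPM (SD, n = 3).

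After 24 h 2667 genes, 18.7% of those tested, passed an adjusted p of 0.05 in edgeR's quasi-likelihood test and are called. Of these, 1473 (10.3%) rose and 1194 (8.35%) fell, and a change of at least 2-fold was reached by 310 rises (2.17%) and 71 falls (0.497%). The antigen presentation and GTPase lists account for 57 of the 310 large rises, so 253 lay outside them, and for 1 of the 1194 falls, the class II pathway protease Lgmn (-0.14 ± 0.05 on the log2 scale). Rises and falls differed in shape. The median called rise was 0.38 on the log2 scale and 21.05% of the rises reached 2-fold, whereas the median called fall was -0.25 and 5.95% of the falls did. Of the falls, 74.4% were smaller than 0.5. Without unstimulated replicate 1 the number of falls was 708, and the number of rises 1108. Over genes, no independent replicates of each other, fold changes went with base composition: Spearman's rho was -0.16 with GC content and 0.07 with exon length, and median GC was 51.6% in falling, 46.6% in rising and 49.3% in all tested genes. With the GC trend removed from each library, 1389 genes fell and 1455 rose.

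**Figure D1:**
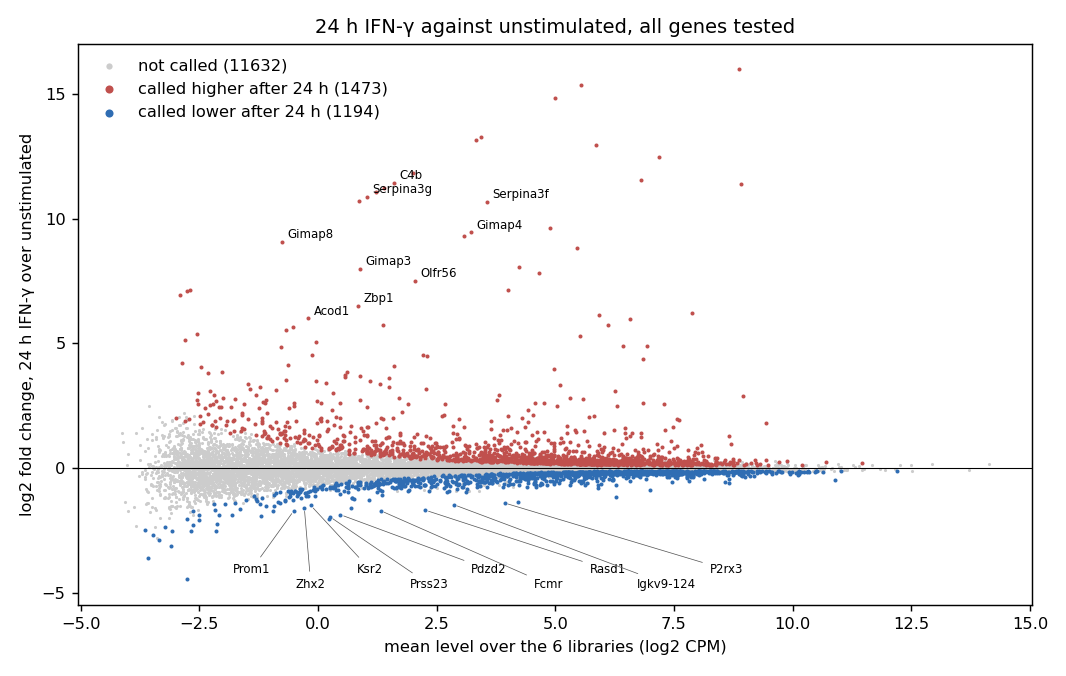
Each point is 1 of 14299 tested genes, with its mean level over the 6 libraries (log2 CPM, horizontal) against its log2 fold change of 24 h IFN-γ over unstimulated cells (vertical). Red points are the 1473 called rises and blue points the 1194 called falls, and the labelled genes are the 9 largest named falls and the 9 largest named rises outside the antigen presentation and GTPase lists. The labelled rises lie far above the bulk of the genes, while the named falls stop at -1.96.

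Outside antigen presentation and the GTPases, the largest rises were in genes that unstimulated cells barely transcribed: a complement component, serpins and the immunity-associated GIMAP proteins. C4b (ENSMUSG00000073418.4, chromosome 17, 34728380 to 34743882 on GRCm38, as are all positions here), which encodes complement component C4, had 0 counts in the 3 unstimulated libraries and 5.68, 5.51 and 7.06 CPM in the 24 h libraries, at least 168-fold higher when the group at 0 is set to 6 counts, the worth of 3 read pairs. Serpina3g (ENSMUSG00000041481.16, chromosome 12, 104236245 to 104241939), an intracellular inhibitor of cysteine proteases, also went from 0 counts to 3.86, 3.80 and 4.55 CPM, at least 112-fold higher. Its neighbour Serpina3f (ENSMUSG00000066363.12, chromosome 12, 104214544 to 104221129) had 2 counts over the unstimulated libraries and 24.2, 24.5 and 22.2 CPM after 24 h, a ratio of 1936 (95% counting interval from 347 to 76501). The copies C4a and C4b, and the members of the Serpina3 cluster, are near-identical, so the split of reads within each family is uncertain. C4a was at 0.827 ± 0.268 and 0.809 ± 0.151 CPM and was not called. Serpinb1a, an inhibitor of neutrophil proteases, was expressed before stimulation and rose from 10.8, 7.83 and 10.7 to 68.9, 67.98 and 71.4 CPM (log2 fold change 2.82 ± 0.13, adjusted p = 2.75e-10). All 4 tested members of the serpin list, of 9 listed, rose. Serpinf1, a serpin outside this list, was among the largest falls (log2 fold change -1.22). Genes low in every group were left out of the test, and some members passed only through their level after 24 h. Such counts are thus not shares of a whole list. Of 9 complement genes tested, of 22 listed, 3 rose and 0 fell. Beside C4b these were the complement regulators Cd55, from 8.55, 10.5 and 9.12 to 17.9, 20.5 and 17.6 CPM, and Cd46 (0.44 ± 0.11). The 24 h libraries of Cd55 lay above all unstimulated libraries, as the rule for naming genes requires. Of all tested genes, 17.2% were higher and 16.8% lower with no overlap between the groups.

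Promoter stretches of some of the largest rises and of the pathway regulators Irf1 and Socs1 are shown, with letter matches to STAT and IRF motifs marked. RefSeq gives a window from 250 bases before to 50 bases after the start for 9451 of the tested genes, 11996 windows in all on GRCm38.p6. The stretches shown are 130 or 131 bases long, hold no base of the annotated gene, and read 5′ to 3′ on the gene's strand, with capitals marking a GAS motif, TTCNNNGAA, or an ISRE motif, GAAA and GAAA with 2 bases of any kind between them, on either strand. They lie at chr12:104236017-104236146 (plus strand), chr12:104214413-104214543 (plus), chr12:26456453-26456582 (minus), chr11:53769884-53770013 (plus) and chr16:10785537-10785666 (minus). The Serpina3g, Serpina3f and Rsad2 stretches belong to the largest rises with a motif before the annotated gene, so the motif is a condition of their choice, and Irf1 and Socs1 were chosen after their values were seen.
Serpina3g: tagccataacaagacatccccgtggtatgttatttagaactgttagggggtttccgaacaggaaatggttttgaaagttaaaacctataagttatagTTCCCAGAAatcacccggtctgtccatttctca
Serpina3f: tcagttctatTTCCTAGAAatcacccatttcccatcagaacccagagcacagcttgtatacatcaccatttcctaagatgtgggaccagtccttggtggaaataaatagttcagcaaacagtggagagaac
Rsad2: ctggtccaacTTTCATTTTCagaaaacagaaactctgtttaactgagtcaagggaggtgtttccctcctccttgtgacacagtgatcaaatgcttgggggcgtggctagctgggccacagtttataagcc
Irf1: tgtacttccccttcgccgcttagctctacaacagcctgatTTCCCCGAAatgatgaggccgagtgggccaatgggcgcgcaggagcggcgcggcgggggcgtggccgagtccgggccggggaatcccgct
Socs1: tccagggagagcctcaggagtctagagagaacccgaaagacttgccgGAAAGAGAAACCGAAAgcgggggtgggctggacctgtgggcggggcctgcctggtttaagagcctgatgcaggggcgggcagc

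Serpina3g and Serpina3f have a GAS motif that begins 33 and 121 bases before the RefSeq start, and Irf1 has one 90 bases before it. Rsad2, an antiviral radical SAM enzyme, has an ISRE match 120 bases before its start, and Socs1 has overlapping ISRE matches at 83 and 77 bases. A GAS motif was found in 6.61% and an ISRE motif in 3.03% of all windows. Among rises of at least 2-fold outside the antigen presentation and GTPase lists the shares were 14.4% and 15.8% of 215 windows, and among those inside these lists 24.4% and 39.0% of 41. Rises under 2-fold had 6.54% and 5.48%, and falls under 2-fold 5.96% and 1.76%. Of the 48 windows of genes that fell at least 2-fold, 4 held a GAS motif and 0 an ISRE. Gimap4, Acod1, Faxc, Lgals3bp and Cmpk2, also among the largest rises, have a window with neither motif. These are letter matches and not binding sites.

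Transcription factors of the pathway rose in 8 of the 15 tested members of the STAT and IRF list, of 19 listed, and fell in 1, with a median log2 fold change of 0.54 beside 0.00 for all genes. Irf1 rose by 4.39 ± 0.06 on the log2 scale (adjusted p = 1.07e-29). Stat2 and Stat3 rose by 0.54 ± 0.06 and 0.76 ± 0.05, while Stat5a, Stat5b and Stat6 lay between -0.05 and 0.02 and were not called. Irf9, a subunit of the interferon-stimulated factor that binds ISRE elements, rose from 8.52 ± 0.533 to 37.4 ± 1.93 CPM, and Irf8, a regulator of B cell and myeloid development, from 61.6 ± 6.89 to 163 ± 2.62 CPM. Batf2, a partner of IRF1, had 1 count in the unstimulated group and 62 after 24 h, a ratio of 56.4 (95% counting interval from 4.70 to 1149). The interval takes this 1 count as 1 read pair, which the ratio does not. The member that fell was Irf4, the factor of activated B cells and plasma cells. Stat2, Stat3, Stat5a, Stat5b, Stat6, Irf8 and Irf9 were chosen after their values were seen.

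Of 17 tested feedback inhibitors of 18 listed, 4 rose, 2 fell and 11 were not called, with a median of -0.04. Socs1, which blocks JAK kinases, rose from 0.395, 0.361 and 0.391 to 8.89, 8.42 and 9.28 CPM (4.53 ± 0.19, adjusted p = 3.78e-17), and Socs3 from 0.0359, 0.160 and 0.170 to 0.652, 1.05 and 0.743 CPM. Both were low in each unstimulated library and higher in each 24 h library, the latter as the rule for naming genes requires. The phosphatase Ptpn1 (0.25 ± 0.05) and Socs2 (0.19 ± 0.04, chosen after its value was seen) also rose, and the adaptor Sh2b3 (-0.27 ± 0.05) and the phosphatase Ptpn6 (-0.24 ± 0.06) fell. The call for Ptpn6 was lost without unstimulated replicate 1 (0.0873), where the value in parentheses is the adjusted p.

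In antiviral families known from interferon most tested members rose, where 10.3% of all genes tested did. Some members passed the expression filter only through their level after 24 h, so the counts are not shares of whole families. Poly(ADP-ribose) polymerases and their partners rose in 9 of 10 members tested (median 0.81), TRIM ubiquitin ligases and nuclear body proteins in 14 of 16 of 19 listed (0.81), OAS, IFIT and related effectors in 9 of 12 of 28 listed with 1 fall (0.93), AIM2-like DNA-binding proteins in 6 of 8 of 12 listed (1.39), and Schlafen proteins in 5 of 5 of 7 listed (1.90). The Schlafen count was 3 without 24 h replicate 1. Of the ISG15 conjugation genes, which tag proteins with a ubiquitin-like modifier, 4 of 5 tested of 6 listed rose. Its activating enzyme Uba7 rose from 6.76, 6.27 and 5.86 to 18.04, 18.1 and 20.3 CPM and its conjugating enzyme Ube2l6 from 5.03, 4.63 and 4.64 to 10.2, 11.9 and 10.3 CPM. Isg15 itself was at 0.160 ± 0.0352 and 0.318 ± 0.199 CPM and was not called (adjusted p = 0.294; chosen after its value was seen).

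Samhd1, which depletes deoxynucleotides and restricts retroviruses, gained most in CPM of the antiviral effectors, from 231, 231 and 242 to 554, 580.2 and 580.5 (1.28 ± 0.04, adjusted p = 2.83e-20). Rsad2 had 4 counts over the unstimulated libraries and 1.22, 1.34 and 1.16 CPM after 24 h, a ratio of 50.7 (95% counting interval from 13.8 to 426). Cmpk2, its neighbour and a nucleotide kinase, rose from 0.216, 0.401 and 0.374 to 5.66, 6.34 and 5.16 CPM, and Ifit1bl1 had a ratio of 30.6 (95% counting interval from 10.2 to 151). Oas1c was the member that fell, from 3.95, 3.35 and 4.33 to 3.02, 2.71 and 2.66 CPM, and its call was lost without unstimulated replicate 1 (0.0751) or 3 (0.123), or 24 h replicate 2 (0.0714) or 3 (0.0748). Parp14 rose from 20.5, 22.5 and 21.2 to 87.8, 93.7 and 90.9 CPM (2.09 ± 0.06), and the neighbours Dtx3l and Parp9, which form a ubiquitin ligase complex and whose transcripts overlap on opposite strands, by 1.54 ± 0.05 and 1.50 ± 0.06. Among nuclear body genes Pml rose from 56.5, 55.3 and 56.8 to 132, 135 and 139 CPM and Sp140 from 42.9, 42.7 and 45.3 to 135, 141 and 122 CPM. Slfn2, needed for T cell quiescence, went from 0.449, 0.120 and 0.238 to 2.35, 1.97 and 2.33 CPM, Slfn8 from 5.46, 5.55 and 4.86 to 19.8, 19.4 and 20.1 CPM, and Slfn1 from 0 counts to 0.309, 0.253 and 0.238 CPM, at least 7.27-fold higher.

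Sensors of nucleic acids rose in 8 of 19 tested members of 23 listed and fell in 0 (median 0.24). Zbp1, which binds left-handed nucleic acid and can start necroptosis, had 6 counts before and 637 after, a ratio of 96.5 (95% counting interval from 32.7 to 469.9). Ddx58, which encodes the RNA sensor RIG-I, rose from 4.55, 4.69 and 4.74 to 8.74, 10.6 and 9.35 CPM, and Nod1, a sensor of bacterial peptides, from 0.108, 0.120 and 0.136 to 0.927, 0.687 and 0.714 CPM. The DNA sensor Aim2 was at 28.2 ± 2.00 and 30.1 ± 0.806 CPM and was not called (chosen after its value was seen), while its relatives Ifi203 and Mndal, which share exon positions on the same strand, rose by 1.66 ± 0.05 and 1.51 ± 0.05. The related Ifi213 and Ifi206 were at or under 0.94 CPM in every library and rose by 1.99 ± 0.44 and 1.55 ± 0.37.

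Some large rises were neighbours on the chromosomes. Within 200 kb of each other, 17 runs of 3 or more such genes held 96 of the 309 that have a position, the GTPase and histocompatibility clusters included, in an analysis added after values were seen. No share was computed for all tested genes, so the count is a description. Beside the GTPase and histocompatibility clusters, 1 run on chromosome 6 (48647234 to 48770851) held 7 Gimap genes that rose at least 2-fold of 9 genes tested there. GIMAP proteins are GTPases of lymphocyte survival that belong to another family than the interferon-inducible ones. Gimap4 had 4 counts over the unstimulated libraries and 18.9, 18.8 and 18.5 CPM after 24 h, a ratio of 770.0 (95% counting interval from 213 to 6365). Gimap8 had 0 counts and then 1.06, 1.07 and 1.398 CPM, at least 32.6-fold higher, and Gimap3 a ratio of 304 (95% counting interval from 54.1 to 12032). Gimap6 and Gimap9, chosen after their values were seen, were expressed throughout and rose from 17.8 ± 0.233 to 57.8 ± 3.92 and from 9.37 ± 1.13 to 33.5 ± 2.98 CPM. After 1 h and 6 h exposures Gimap6 stood at 17.4 ± 1.60 and 18.1 ± 1.38 CPM, near its unstimulated level. Other runs held Parp14, Dtx3l and Parp9 on chromosome 16 (35832874 to 35972605), Slfn8, Slfn2 and Slfn1 on chromosome 11 (83002158 to 83122670), Ifi206, Ifi214 and Ifi213 on chromosome 1 (173468485 to 173599274), and Sp140 with 11 predicted or clone-named genes on chromosome 1 (84963669 to 85645037). Olfr56, an olfactory receptor gene among the named rises (7.52 ± 0.35), spans the GTPase genes Ifi47, Tgtp1 and Tgtp2, so its reads are uncertain.

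Metabolic enzymes of the immune response moved in both directions, with 4 of 14 tested genes of 21 listed higher and 3 lower (1 lower without unstimulated replicate 2 or 24 h replicate 3). The shares were 28.6% and 21.4%, beside 10.3% and 8.35% of all genes tested. Wars, the tryptophanyl-tRNA synthetase, rose from 81.1, 82.5 and 82.3 to 302, 308 and 311 CPM, 3.75-fold (adjusted p = 2.65e-24), and after 1 h and 6 h exposures it stood at 83.1 ± 3.36 and 78.98 ± 0.930 CPM. Acod1, which makes itaconate, had 4 counts and then 1.97, 1.36 and 1.81 CPM, a ratio of 70.9 (95% counting interval from 19.3 to 591). Nampt, of NAD salvage, rose from 168, 171 and 169 to 281, 283 and 268 CPM, and the amino acid transporter Slc7a5 fell from 261, 239 and 248 to 197, 206 and 209 CPM. Kmo, of tryptophan breakdown, and Cd38, which consumes NAD, had log2 fold changes of -0.24 ± 0.07 and -0.20 ± 0.07, and the calls were lost without unstimulated replicate 2 (0.0718) or 3 (0.0604), or 24 h replicate 3 (0.0819) and without unstimulated replicate 1 (0.0670) or 2 (0.222), or 24 h replicate 1 (0.0763), 2 (0.0965) or 3 (0.107).

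In the iron and redox list 6 of 27 tested members of 31 listed rose (22.2%) and 4 fell (14.8%), beside 10.3% and 8.35% of all genes tested. The rises included genes of the phagocyte NADPH oxidase. Ncf1 rose from 6.04, 5.81 and 6.39 to 26.8, 27.3 and 23.6 CPM (2.09 ± 0.09; Gtf2ird2 overlaps it on the opposite strand) and the membrane subunit Cybb from 19.5, 19.5 and 23.04 to 55.8, 58.3 and 51.7 CPM (1.42 ± 0.07). Cyba and Ncf4 rose less (0.25 ± 0.06 and 0.20 ± 0.07, chosen after their values were seen). Cybb was intermediate in the blocked groups, at 27.2 ± 0.668 CPM after 1 h and 32.7 ± 1.01 CPM after 6 h. In the same list the heme oxygenase Hmox1 fell from 20.3, 21.4 and 17.7 to 11.04, 12.7 and 12.8 CPM (-0.70 ± 0.08) and Gclc, of glutathione synthesis, from 457, 497 and 445 to 353, 339.9 and 341 CPM (-0.44 ± 0.04). Their regulator Nfe2l2 rose by 0.34 ± 0.04. The count of falls was 2 without unstimulated replicate 1 or 3 or 24 h replicate 1. Mpeg1, which encodes the pore-forming perforin-2 of phagocytes and B cells, rose from 7.22, 6.09 and 6.56 to 42.1, 38.3 and 41.6 CPM. The Fc receptor Fcgr3 rose from 0.270, 0.260 and 0.425 to 1.18, 0.633 and 0.907 CPM. Of the summed myeloid markers given above, Cd68 made up most in each of the 6 libraries. Whether other cells gave reads of these genes was not tested.

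Checkpoint and costimulatory genes rose in 9 of 17 tested members of 26 listed and fell in 2 (median 0.54). Cd274, the ligand PD-L1, had 5.72, 6.17 and 6.54 CPM in unstimulated and 73.03, 62.1 and 51.95 CPM in 24 h libraries (3.34 ± 0.10). Tnfrsf14, the partner of BTLA, rose from 3.36, 3.79 and 3.19 to 12.1, 10.7 and 10.02 CPM, the costimulator Cd86 from 1.15, 1.12 and 0.832 to 3.90, 2.93 and 4.13 CPM, and the lectin Lgals9 from 271, 281 and 290.1 to 523, 557 and 560.2 CPM. Slamf7, a receptor of the SLAM family, fell from 250.1, 266 and 263 to 201, 204 and 208 CPM, and Cd48 of the same family changed by -0.24 on the log2 scale. The call for Cd48 was lost without unstimulated replicate 3 (0.0749).

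Among cytokines Csf1, the growth factor of macrophages, rose from 24.9, 23.2 and 23.7 to 135, 135 and 129 CPM, 5.55-fold (adjusted p = 6.6e-24), and Tgfb1 fell from 67.3, 73.6 and 66.7 to 46.0, 49.4 and 50.2 CPM (-0.51 ± 0.05, adjusted p = 1.18e-08). The 2 genes moved in opposite directions, and the groups overlapped in neither, as the rule for naming genes requires. The death ligand Tnfsf10 rose from 0.180, 0.280 and 0.136 to 1.36, 1.23 and 1.03 CPM, and Cxcl10, a chemokine for activated T cells, from 0.108, 0 and 0.0679 to 0.412, 0.470 and 0.238 CPM, or 10 against 66 counts. In all 5 of 11 tested of 33 listed rose and 1 fell, and 3 rose in each fit without unstimulated replicate 1 or 2 or any 1 of the 24 h replicates, while 2 fell without unstimulated replicate 1. The receptor genes Ifngr1 and Ifngr2 were not called (adjusted p = 0.102 and 0.0725, chosen after their values were seen). Ifngr2 was called without unstimulated replicate 3 (adjusted p = 0.0177). Cytokine receptors rose in 8 of 27 tested of 36 listed (29.6%) and fell in 3 (11.1%), with a median of 0.17. Of all genes tested, 10.3% rose and 8.35% fell. Il12rb1, a chain of the IL-12 and IL-23 receptors, rose from 0.180, 0.160 and 0.272 to 2.59, 2.49 and 3.20 CPM, and the growth factor receptor chains Il2ra and Il7r fell, Il2ra from 82.7, 94.4 and 82.2 to 61.9, 61.1 and 60.2 CPM. Tnfrsf1b and Il10ra rose by 0.59 ± 0.07 and 0.61 ± 0.14.

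Homing and adhesion receptors rose in 7 of 24 tested of 28 listed (29.2%) and fell in 3 (12.5%), with a median of 0.02. Of all genes tested, 10.3% rose and 8.35% fell. Itgb7, the integrin chain of gut-homing lymphocytes, rose from 1.33, 0.761 and 1.07 to 6.35, 6.15 and 6.60 CPM (2.59 ± 0.21), and the gut chemokine receptor Ccr9, low throughout, from 0.431, 0.120 and 0.204 to 0.721, 0.831 and 0.773 CPM. The call for Ccr9 was lost without unstimulated replicate 2 (0.0526). Its gene overlaps Lztfl1 on the opposite strand, so its reads are uncertain. The sphingosine phosphate receptor S1pr4 rose from 3.22, 2.84 and 2.58 to 4.67, 5.21 and 5.83 CPM and the lymph node receptor Ccr7 fell from 29.9, 32.4 and 32.05 to 26.5, 27.3 and 24.8 CPM. S1pr2 fell by 0.53 on the log2 scale, a call lost without unstimulated replicate 1 (0.0997) or 3 (0.0845), or 24 h replicate 1 (0.119) or 3 (0.0530). Cd24a, a surface glycoprotein of immature B cells, lost more CPM than any other named gene, from 2108, 2295 and 2248 to 1584, 1618 and 1518 (-0.49 ± 0.04, adjusted p = 3.46e-10).

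Genes of cell death rose in 11 of 23 tested of 27 listed and fell in 1 (median 0.19). Xaf1, an antagonist of XIAP, rose from 0.359, 0.341 and 0.492 to 2.15, 1.97 and 2.01 CPM, the inflammatory caspase Casp4 from 0.449, 0.361 and 0.526 to 1.75, 1.36 and 1.87 CPM, and Mlkl, the executor of necroptosis, from 0.431, 0.841 and 0.509 to 1.99, 2.02 and 1.77 CPM. Casp1 and Gsdmd rose by 1.01 ± 0.07 and 0.62 ± 0.08 (chosen after their values were seen), and Casp9, which fell by 0.22, lost its call without unstimulated replicate 1 (0.0878), or 24 h replicate 1 (0.0646). In the BCL2 family 5 of 13 tested of 19 listed rose: the death-promoting Pmaip1 (0.63 ± 0.13), Bbc3 (0.50 ± 0.11), Bak1 (0.39 ± 0.05) and Bmf (0.36 ± 0.08) and the survival gene Mcl1 (0.23 ± 0.04), the last pair chosen after their values were seen. Bcl2 fell from 4.03, 3.65 and 3.28 to 3.02, 2.31 and 2.35 CPM, and its call was lost without unstimulated replicate 1 (0.0916), or 24 h replicate 2 (0.0710) or 3 (0.0659). The p53 list overlaps this list in Bbc3 and Pmaip1, and 10 of its 21 tested members of 25 listed rose and 0 fell, while 6 rose without 24 h replicate 2 and 1 fell without unstimulated replicate 2. Trp53inp1 rose from 176, 196 and 184 to 362, 362 and 342 CPM, with 217 ± 3.34 and 222 ± 19.1 CPM in the 1 h and 6 h groups, and Trp53 itself (-0.13 ± 0.05) and Mdm2 (-0.05 ± 0.05) were not called.

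Of G1 cyclins and inhibitors of cyclin-dependent kinases 3 of 14 tested of 16 listed rose. Cdkn1b, which encodes p27, rose from 44.9, 49.8 and 45.8 to 84.6, 80.5 and 84.6 CPM (0.83 ± 0.06, adjusted p = 1.4e-12), and Ccnd1 by 0.37 ± 0.04. Cdkn1a rose by 0.47 ± 0.14, a call lost without unstimulated replicate 1 (0.0698) or 3 (0.0908), or 24 h replicate 1 (0.0641) or 2 (0.0589). Stress response genes rose in 13 of 27 tested of 29 listed (48.1%) and fell in 3 (11.1%), with a median of 0.12. Of all genes tested, 10.3% rose and 8.35% fell. Atf3 rose from 1.28, 0.881 and 1.34 to 6.28, 5.51 and 5.16 CPM and Ddit4 from 30.5, 26.9 and 34.8 to 44.1, 44.5 and 49.9 CPM, and Creld2, a gene of the endoplasmic reticulum, rose by 0.54 ± 0.08. Atf4 was not called (-0.09 ± 0.05), and the serine pathway enzyme Psat1 (-0.19 ± 0.04) and Sel1l, of protein breakdown at the endoplasmic reticulum (-0.24 ± 0.05), fell. Jun, an AP-1 subunit chosen after its values were seen, had 17.5, 17.4 and 26.4 CPM in unstimulated and 89.1, 83.1 and 79.2 CPM in 24 h libraries (2.03 ± 0.22), and Fos was not called (-0.52 ± 0.25, adjusted p = 0.163). In the NF-κB list 5 of 19 tested of 20 listed rose and 1 fell, the rises led by the IκB family members Nfkbiz and Nfkbie (0.61 ± 0.13 and 0.59 ± 0.12), while Rela and Nfkb1 were not called. The shares in the NF-κB list were 26.3% higher and 5.26% lower, and the count of falls was 2 without 24 h replicate 3.

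Of 34 tested cholesterol genes of 36 listed, 17 rose, 2 fell and 15 were not called, with a median of 0.25 on the log2 scale. The enzyme Dhcr7 rose from 27.2, 30.7 and 31.4 to 35.99, 37.5 and 43.9 CPM, and Mylip, which degrades the LDL receptor, from 17.6, 17.4 and 20.02 to 25.6, 23.98 and 24.4 CPM. Srebf2, which drives sterol synthesis genes, was not called (0.05 ± 0.04). Insig1 had 71.7, 76.4 and 91.01 and 98.4, 99.4 and 111 CPM, and its call was lost without unstimulated replicate 1 (0.127) or 2 (0.128), or 24 h replicate 1 (0.0708), 2 (0.0815) or 3 (0.127). The members called lower were the exporter Abca1 (-0.53 ± 0.16) and Srebf1 (-0.16 ± 0.06). Abca1 lost its call without unstimulated replicate 2 (0.0949) or 3 (0.0662), or 24 h replicate 2 (0.128), and Srebf1 lost its call without unstimulated replicate 1 (0.254), 2 (0.0534) or 3 (0.0712), or 24 h replicate 1 (0.190) or 2 (0.150). Autophagy and lysosome genes rose in 8 of 39 tested of 40 listed, led by the cathepsin Ctsc (92.9 ± 2.24 to 154 ± 8.48 CPM) and the autophagy receptor Optn (0.719, 0.721 and 0.323 to 1.49, 1.48 and 1.37 CPM), with a median of 0.01, and 1 fell without 24 h replicate 1.

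**Figure D2:**
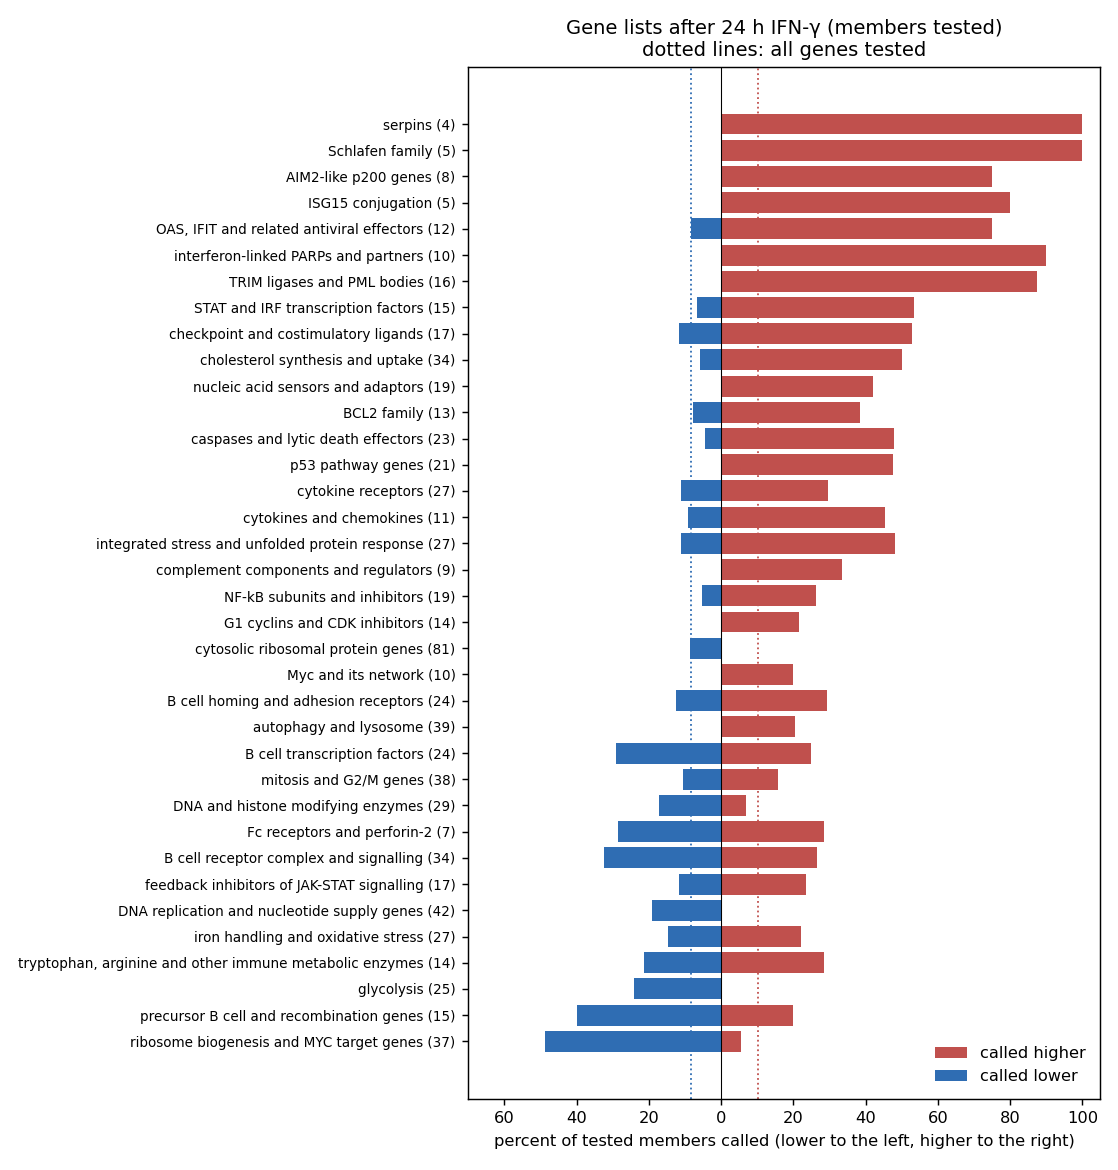
Bars show, for each gene list, the percent of tested members called higher (red, to the right) and lower (blue, to the left) after 24 h IFN-γ, with the number tested in parentheses and the lists ordered by median fold change. Dotted lines mark the shares of all genes tested, 10.3% higher and 8.35% lower. The serpin and Schlafen lists are higher in every tested member, 4 of 9 and 5 of 7 listed. Some of these passed the filter only through their 24 h level, and the Schlafen count was 3 without 24 h replicate 1. Ribosome biogenesis and precursor B cell genes stand at the lower end.

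Falling genes were then described in their own right. The largest named fall was Prss23 (ENSMUSG00000039405.7, chromosome 7, 89507783 to 89527187), a secreted serine protease, with 1.69, 1.92 and 2.07 CPM in unstimulated and 0.618, 0.361 and 0.476 CPM in 24 h libraries (-1.96 ± 0.24, adjusted p = 4.12e-07). Pdzd2 (ENSMUSG00000022197.16, chromosome 15, 12359711 to 12739924), a protein of PDZ domains, fell from 1.91, 2.04 and 2.60 to 0.755, 0.361 and 0.654 CPM (-1.88 ± 0.25, adjusted p = 1.85e-06). Fcmr (ENSMUSG00000042474.6, chromosome 1, 130865669 to 130880791), the Fc receptor for IgM, fell from 3.20, 4.27 and 4.06 to 1.03, 1.23 and 1.23 CPM, or to 30.4% of its unstimulated level (-1.72 ± 0.16, adjusted p = 1.55e-09). These 3 genes were low before stimulation too, under 5 CPM in every unstimulated library. At a higher level, the transmembrane protease Tmprss3 fell from 105, 111 and 107 to 45.9, 48.7 and 48.3 CPM (-1.18 ± 0.05, adjusted p = 5.77e-18), and P2rx3, an ATP-gated channel whose gene overlaps Ssrp1 on the opposite strand, from 22.6, 21.9 and 21.9 to 8.07, 8.71 and 8.30 CPM. The spread within each group was under 3 CPM in P2rx3 and under 6 CPM in Tmprss3. Rasd1, a Ras-related GTPase, fell from 9.24, 6.01 and 6.64 to 2.44, 2.24 and 2.11 CPM, and the immunoglobulin kappa variable segment Igkv9-124 from 9.76, 11.7 and 10.6 to 3.93, 4.28 and 3.36 CPM. Prom1, Zhx2, Ksr2, Sema6a, Dzip1, Serpinf1, Ank2, Prr33, Best3, Lrtm2, Tpi-rs11 and Hspa12a complete the 20 largest named falls, with log2 fold changes from -1.72 to -1.05. Those of the lowest level rest on few counts: Best3 lost its call without 24 h replicate 1 (0.0671), Lrtm2 without unstimulated replicate 3 (0.132), or 24 h replicate 1 (0.0685), Hspa12a without unstimulated replicate 3 (0.0842), or 24 h replicate 2 (0.108), and Tpi-rs11 without unstimulated replicate 1 (0.109) or 2 (0.0553), or 24 h replicate 1 (0.105). Lrtm2 and Prr33 overlap other genes on the opposite strand.

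**Figure D3:**
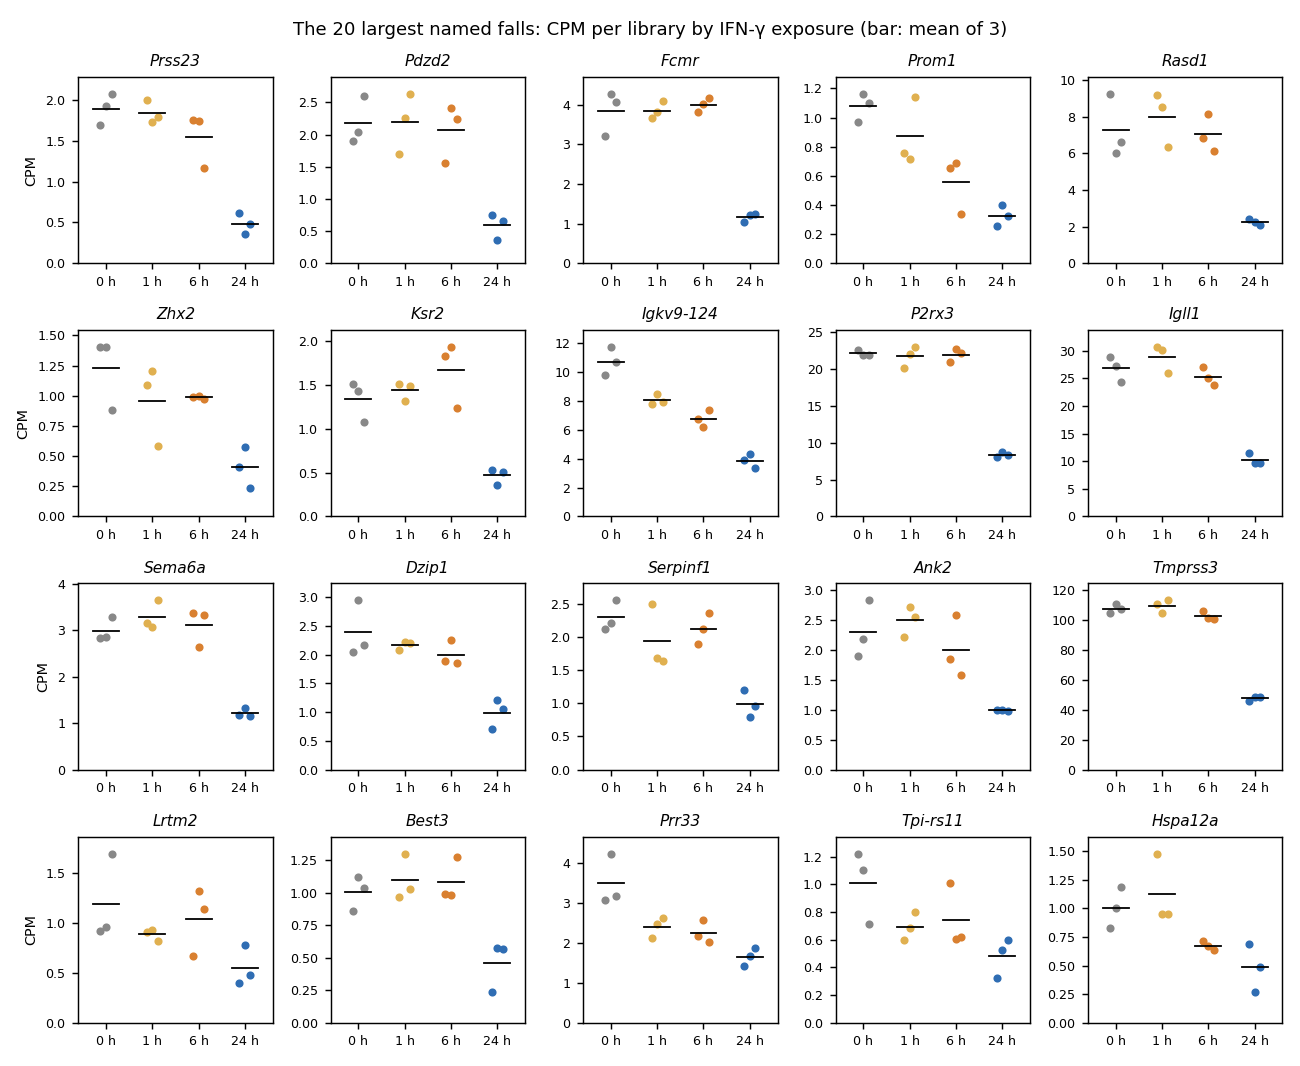
Each panel shows 1 of the 20 largest named falls, with CPM per library (points, vertical axis from 0) after 0, 1, 6 and 24 h of IFN-γ exposure and the mean of 3 libraries (bar). The 24 h points lie below the unstimulated points in every panel, as the rule for naming genes requires. The 1 h and 6 h points of most panels lie near the unstimulated ones.

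The promoters of Prss23 (chr7:89527188-89527317, minus strand) and Pdzd2 (chr15:12739925-12740022, minus strand) belong to the largest named falls, chosen by size alone, whereas the rises above were chosen for holding a motif, so the 2 sets make no contrast. The bases printed end before the annotated start and hold no GAS or ISRE match. RefSeq gives Prss23 7 windows, and 1 of them, not printed, holds a GAS motif.
Prss23: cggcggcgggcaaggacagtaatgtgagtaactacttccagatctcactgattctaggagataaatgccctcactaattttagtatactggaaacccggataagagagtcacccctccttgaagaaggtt
Pdzd2: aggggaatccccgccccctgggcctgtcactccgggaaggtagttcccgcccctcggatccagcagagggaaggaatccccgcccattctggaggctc

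Genes of precursor B cells were among the falls. In this list 6 of 15 tested members of 20 listed fell and 3 rose (median -0.09). Igll1 (ENSMUSG00000075370.10, chromosome 16, 16860671 to 16863985), which encodes the surrogate light chain λ5, fell from 28.97, 27.3 and 24.4 to 11.5, 9.71 and 9.71 CPM, to 38.3% of its unstimulated level (-1.38 ± 0.08, adjusted p = 2.25e-13). Its partner Vpreb1 fell from 11.8, 9.80 and 12.9 to 6.14, 5.04 and 6.32 CPM (-0.98 ± 0.10), and Vpreb3 from 83.2, 84.1 and 92.3 to 59.2, 71.6 and 57.4 CPM (-0.47 ± 0.09). Il7r, the receptor chain that precursor B cells need for growth, fell from 316, 354 and 303 to 245, 237 and 234 CPM (-0.44 ± 0.05), and Ikzf1 and Myb by 0.37 and 0.24 on the log2 scale (chosen after their values were seen). The recombinase gene Rag1 went the other way, from 232, 243 and 221 to 317, 318 and 323 CPM (0.46 ± 0.07), but stood at 324 ± 11.7 CPM in the 1 h and 361 ± 48.3 CPM in the 6 h group, both called above unstimulated cells, so its 24 h level was not the highest. Rag1 overlaps the tested gene B230118H07Rik on the same strand, so its reads are uncertain. Rag2 was not called (-0.02 ± 0.06, chosen after its value was seen). Spn, which encodes the sialoprotein CD43, rose from 86.3, 81.3 and 83.8 to 130.1, 122 and 139 CPM (0.64 ± 0.05), and Sox4 rose by 0.46 ± 0.13, a call lost without unstimulated replicate 1 (0.0868), or 24 h replicate 2 (0.118).

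B cell transcription factors fell in 7 of 24 tested members of 26 listed and rose in 6. Irf4 fell from 435, 473 and 457 to 316, 315 and 301 CPM (-0.55 ± 0.04, adjusted p = 3.22e-11). It was called higher in both blocked groups, with 555 ± 16.1 CPM after 1 h and 569 ± 18.4 CPM after 6 h. Ebf1 had the same order, 202, 220.4 and 202 CPM in unstimulated, 255, 239.8 and 240.2 CPM after 1 h, 275, 265 and 240.3 CPM after 6 h and 177, 173 and 176 CPM after 24 h (24 h against unstimulated -0.25 ± 0.05). Pax5, the commitment factor, fell from 596, 636 and 604 to 500.1, 506 and 474 CPM (-0.31 ± 0.05), and Mef2c from 208, 229 and 207 to 163, 167 and 153 CPM. Against these falls stood Bcl6, the germinal centre repressor, at 0.252, 0.321 and 0.221 and then 1.54, 1.59 and 1.98 CPM (2.69 ± 0.32), and Klf3 at 4.31, 3.77 and 3.94 and then 7.43, 8.86 and 5.86 CPM (0.88 ± 0.15). Prdm1, which drives plasma cells, rose by 1.09 ± 0.28 from under 1.2 CPM, a call lost without unstimulated replicate 3 (0.0524). The 7 plasma cell markers summed to 517 to 557 CPM in unstimulated and 382 to 399 CPM in 24 h libraries, most of it Irf4, and of 5 tested 2 rose and 2 fell. Beside Prdm1 and Irf4, Xbp1 rose by 0.31 ± 0.08, a call lost without unstimulated replicate 1 (0.0503) or 2 (0.0709), or 24 h replicate 2 (0.0920), Cd38 was called lower (-0.20 ± 0.07, with its lost calls given above), and Sdc1 was not called (-0.07 ± 0.09). Of the B cell transcription factors, 3 rose without unstimulated replicate 3, where 6 rose in the main fit.

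Genes of the B cell receptor and its signalling fell in 11 of 34 tested members of 38 listed and rose in 9 (median -0.03). The PI3 kinase adaptor Pik3ap1 fell from 101, 92.2 and 94.1 to 58.3, 63.3 and 55.5 CPM (-0.70 ± 0.06, adjusted p = 3.75e-09), and Prkcb from 9.90, 10.1 and 11.2 to 7.90, 6.65 and 7.45 CPM (-0.51 ± 0.10). Cd72, Inpp5d, Syk, Dok3, Blnk, Lyn and Plcg2 fell by smaller amounts, from -0.38 for Cd72 to -0.18 for Plcg2 (chosen after their values were seen). Cd79a, a chain of the receptor, was called lower by -0.16, a call lost without unstimulated replicate 1 (0.0775) or 3 (0.0582), or 24 h replicate 1 (0.158), and Cd79b was not called (-0.09 ± 0.04). Themis2, a scaffold of receptor signalling, rose from 12.5, 14.7 and 15.9 to 38.6, 37.5 and 42.6 CPM (1.46 ± 0.08), Ms4a1, which encodes CD20, from 7.46, 9.05 and 9.20 to 12.4, 14.4 and 12.1 CPM, and the phosphatase Ptprc from 189.9, 185 and 189.9 to 255, 260.0 and 249 CPM. Fcrla, an intracellular Fc receptor-like protein of B cells, fell from 262, 271 and 268 to 185, 186 and 185 CPM (-0.53 ± 0.04), and Fcgr2b was not called (-0.03 ± 0.04, chosen after its value was seen).

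**Figure D4:**
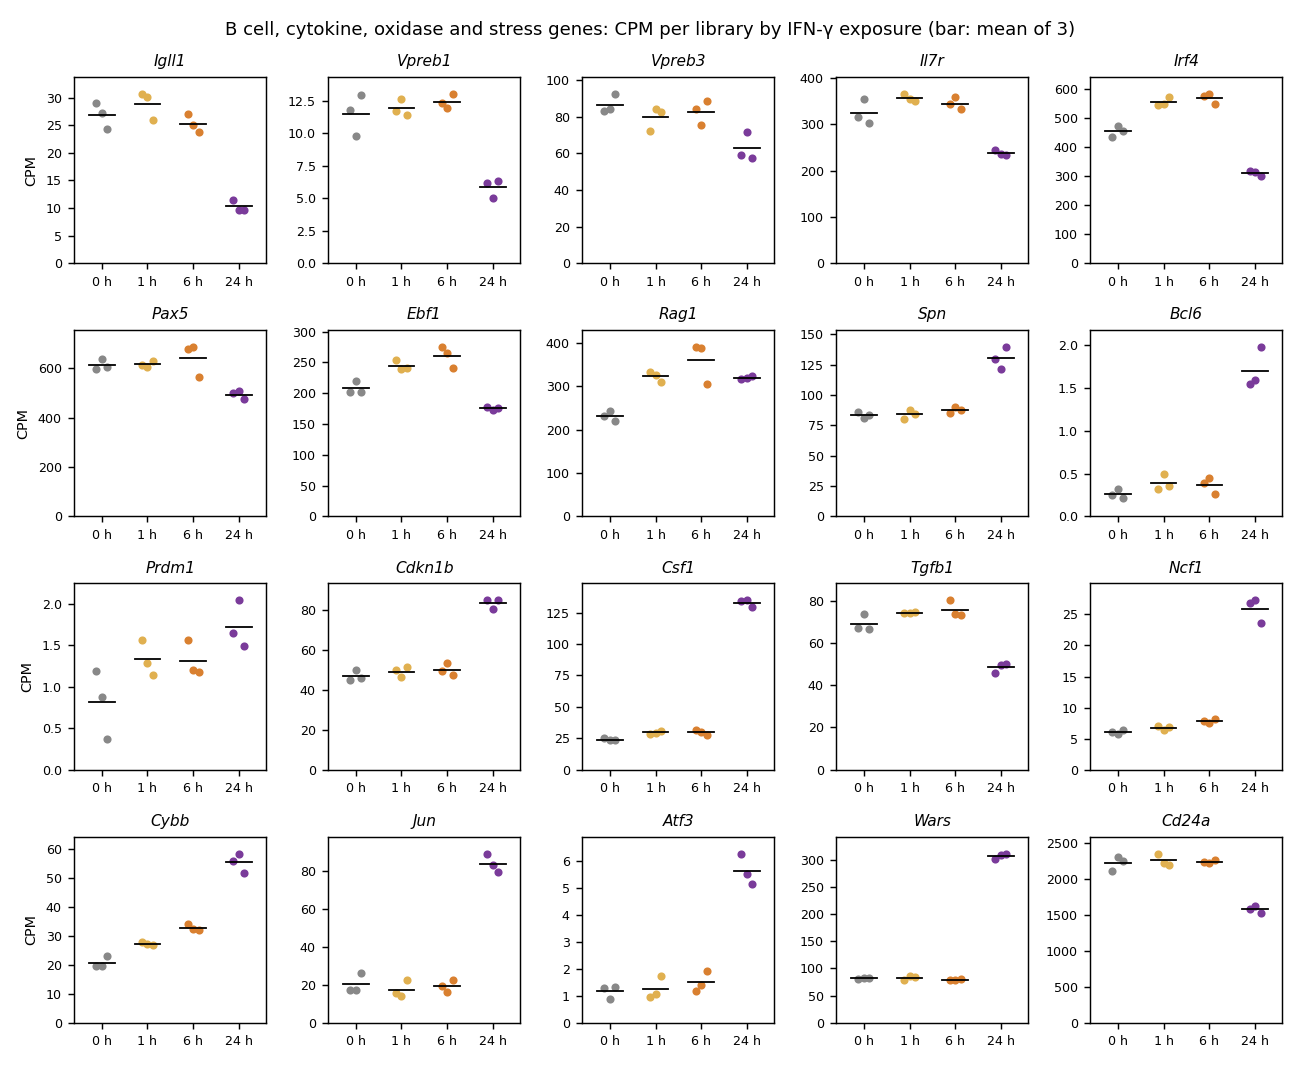
Each panel shows the CPM per library (points, vertical axis from 0) of 1 gene after 0, 1, 6 and 24 h of IFN-γ exposure, with the mean of 3 libraries (bar). Igll1, Vpreb1, Il7r, Irf4 and Tgfb1 are lowest at 24 h, Csf1, Ncf1, Wars and Cdkn1b are highest there, and Rag1, Irf4 and Ebf1 have 1 h and 6 h levels above the unstimulated ones.

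Some ribosome biogenesis and MYC target genes fell by small amounts, and Myc was not called. Myc stood at 1603, 1646 and 1592 CPM in unstimulated and 1622, 1675 and 1774 CPM in 24 h libraries and was not called (adjusted p = 0.296, chosen after its values were seen). Of its network Max and the antagonist Mxd1 rose by 0.21 ± 0.05 and 0.52 ± 0.07, and the other 8 of 10 tested members of 12 listed were not called. Ribosome biogenesis and MYC target genes fell in 18 of 37 tested members of 38 listed and rose in 2, with a median of -0.12. Ltv1, of small subunit assembly, fell from 119, 125 and 116 to 94.7, 98.1 and 96.98 CPM (-0.31 ± 0.04), Tsr1 from 205, 201 and 198 to 172, 172 and 178 CPM (-0.21 ± 0.04), and Nme1 by 0.25 on the log2 scale, the last a call lost without unstimulated replicate 3 (0.0622). The RNA polymerase I factor Rrn3 and Gar1 were higher by 0.12 ± 0.04 and 0.26 ± 0.06, and Rrn3 lost its call without unstimulated replicate 1 (0.160) or 3 (0.0517), or 24 h replicate 2 (0.0664) or 3 (0.129). The count of falls was 9 without 24 h replicate 2 and 10 without unstimulated replicate 1 or 3. Nucleolin, Ncl, the second largest loss in CPM, had 5009, 4705 and 4976 and 4676, 4411 and 4384 CPM (-0.13 ± 0.04), and its call was lost without unstimulated replicate 1 (0.198) or 3 (0.156), or 24 h replicate 2 (0.154) or 3 (0.136). Other large losses in CPM were Ahnak, from 450.4, 491 and 528 to 323, 328 and 308, the actin regulator Cyfip2, from 1179, 1239 and 1257 to 971, 1044 and 979.7, the ribosomal protein Rpl12, from 1299, 1140.4 and 1209 to 1038, 1007 and 1015, Eif5a (-0.17 ± 0.04) and Anp32b (-0.25 ± 0.05).

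DNA replication genes fell in 8 of 42 tested members, none rose, and the list had a median of -0.05. The count was 5 without unstimulated replicate 1 or 24 h replicate 1, and 1 rose without unstimulated replicate 2. The helicase subunit Mcm3 fell from 530.0, 514 and 522 to 436, 426 and 442 CPM (-0.26 ± 0.04), Gins2 by 0.27 and Uhrf1, which guides maintenance methylation, by 0.19 on the log2 scale. Genes of mitosis were mixed, with 4 of 38 (10.5%) lower and 6 (15.8%) higher (median -0.02). Of all genes tested, 8.35% were lower and 10.3% higher. Top2a rose from 1495, 1509 and 1559 to 1774, 1873 and 1729 CPM (0.24 ± 0.04) and the centromere histone Cenpa by 0.35 ± 0.04, while Ccnb1 and Incenp each fell by 0.17. The count of mitotic rises was 2 without unstimulated replicate 3 or 24 h replicate 1 or 2, and 3 without unstimulated replicate 1, and with the GC trend removed 7 fell and 3 rose. Glycolysis genes fell in 6 of 25 tested and rose in 0 (median -0.09), or 1 without unstimulated replicate 1 or 24 h replicate 1 and 2 without unstimulated replicate 3 or 24 h replicate 2. Aldoa fell from 444, 425 and 438 to 343, 336 and 387 CPM (-0.29 ± 0.05), with 397 ± 10.7 CPM after 1 h and 334 ± 8.03 CPM after 6 h, the last called below unstimulated cells too. Gapdh lost its call without unstimulated replicate 1 (0.0670), or 24 h replicate 1 (0.0854), and Ldha lost its call without unstimulated replicate 1 (0.185) or 3 (0.0853), or 24 h replicate 1 (0.0706) or 2 (0.137). Of DNA and histone modifying enzymes 5 of 29 tested of 30 listed fell, among them Dnmt1 (-0.19 ± 0.04) and the demethylase Kdm6b (-0.28 ± 0.06), and 2 rose, Hdac9 (0.39 ± 0.09) and Kmt2a (0.20 ± 0.06), the last a call lost without unstimulated replicate 1 (0.0909), or 24 h replicate 2 (0.122). The shares in that list were 17.2% lower and 6.90% higher. The count of falls in it was 3 without any 1 of the unstimulated replicates or without 24 h replicate 1.

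By annotated gene type, a breakdown added after values were seen, the share of genes that fell ran from 0.867% of antisense genes to 13.9% of processed pseudogenes among the types with over 300 genes tested. Processed pseudogenes, which are retrotransposed copies of messenger RNAs, fell in 171 of 1227 tested and rose in 10, with a median log2 fold change of -0.36, whereas protein coding genes fell in 979 of 11168 (8.77%) and rose in 1289 with a median of 0.00. Without unstimulated replicate 1 or 2, or 24 h replicate 2 or 3, the count of pseudogene falls or that of rises changed by more than 1.5-fold. The summed level of the tested processed pseudogenes was 3723, 3750.0 and 3589.6 CPM in the unstimulated and 3170.0, 2856 and 2822 CPM in the 24 h libraries. It ran from 3155 to 3978 CPM in the 1 h and 6 h libraries, which overlap both groups. Against the 1 h and 6 h groups the median for the 24 h group was -0.23 and -0.30. Of the 71 falls of at least 2-fold, 37 were protein coding and 20 processed pseudogenes. Pseudogenes of cytosolic ribosomal proteins fell in 23 of 123 tested (18.7%) with a median of -0.37. Of 81 ribosomal protein genes 7 fell (8.64%), with a median of 0.04, where 8.35% of all genes tested fell. That 7 became 3 without unstimulated replicate 1 or 24 h replicate 1 or 2, and 2 without unstimulated replicate 3, and none to 2 rose in these fits. Of the same genes 5 rose with the replicate block, 4 with no expression filter and 3 in a fit of the 6 libraries alone or with the exon length trend removed. Reads of such copies can be shared with or lost to their parent genes in counting, so the level of a single pseudogene is uncertain. Of 379 lincRNA genes 38 rose and 10 fell, and of 346 antisense genes 24 rose and 3 fell, with medians of 0.13 and 0.16. The shares called higher were 10.03% and 6.94%, at or below the 10.3% of all tested genes.

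**Figure D5:**
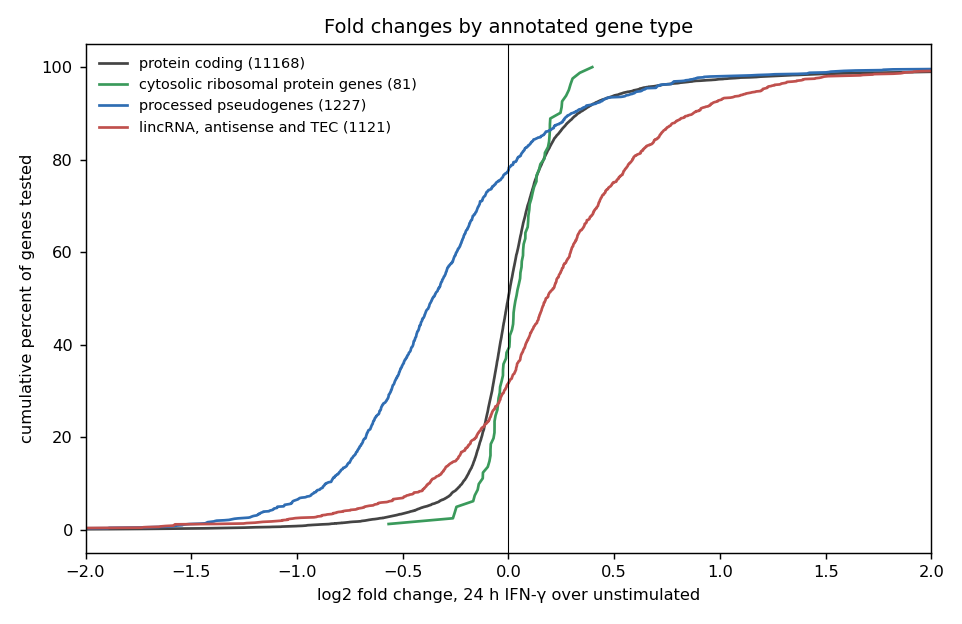
The curves give the cumulative percent of tested genes (vertical) at or below a log2 fold change of 24 h IFN-γ over unstimulated cells (horizontal) for protein coding genes, ribosomal protein genes, processed pseudogenes and a group of noncoding genes, with the number of genes in parentheses. The curve of processed pseudogenes lies to the left, with a median of -0.36, and that of lincRNA, antisense and TEC (transcripts with no settled type) genes to the right of protein coding genes.

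Levels after the blocked exposures set the falls beside shorter exposure. The comparisons share samples, and the genes were chosen by their fall between the same unstimulated and 24 h libraries. Negative medians and calls are thus partly set by that choice, which the shares of all genes do not carry. The values are given side by side and are no independent support. For the 71 genes that fell at least 2-fold after 24 h, the median log2 fold change was -0.24 for 1 h and -0.19 for 6 h against unstimulated cells, with 0 and 2 called. The background for those comparisons was 0.147% and 0.427% of genes called lower. For 24 h against 1 h and against 6 h the medians were -1.31 and -1.29, with 40 and 42 of the 71 called, where 8.78% and 7.63% of all genes were called lower and 10.2% and 8.92% higher. Igkv9-124 was the 1 member of the 20 largest named falls called lower after 6 h, at 8.07 ± 0.356 CPM after 1 h and 6.75 ± 0.611 CPM after 6 h (adjusted p = 0.000365 for 6 h against unstimulated), values that lie between 10.7 ± 0.971 and 3.86 ± 0.466 CPM. The other 19 were not called in either blocked group. Of smaller named falls Aldoa, given above, and Hmox1 were also called lower after 6 h, Hmox1 at 14.8 ± 0.685 CPM (adjusted p = 0.00423).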

How the data were processed

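Polyadenylated RNA of 12 samples of a mouse Eµ-myc B cell lymphoma, 3 per group, was sequenced as stranded paired reads of 125 bases, per the labels' protocols. The authors deposited raw counts per gene. STAR 2.5.2a, featureCounts 1.4.3-p1, Picard and mm10 are named in the submitters' processing notes; the sources used here give neither the annotation nor the strand setting. Counts of most genes with 1 to 20 counts were even (69.9% to 73.9% of such genes by library), so 2 counts are treated as 1 read pair. Of 53379 identifiers, 53274 had a symbol and position in GENCODE M21 (GRCm38). Named genes whose overlap with other tested genes is not given above include Bak1, Kmo, Nampt and Tsr1.

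Genes were kept by filterByExpr (edgeR 4.0.16, R 4.3.3), scaled by TMM and fitted over the 12 samples in 4 groups with the robust quasi-likelihood test, which gave 8 residual degrees of freedom. The common biological coefficient of variation was 0.0579. Benjamini-Hochberg adjusted p-values run over 14299 genes, and a call is an adjusted p under 0.05. Values are log2 fold change ± standard error and CPM per library in replicate order. The code was tested on simulated data. Low-count ratios carry exact 95% intervals on counts halved to read pairs. These take at least 1 pair in the unstimulated group and cover counting error only.

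The members and lists were chosen with earlier results of these data known. Named genes, outside the antigen presentation and GTPase lists, were called, did not overlap between groups, had at least 1 CPM in the higher group and no predicted-gene or clone name: the 20 largest falls and rises, the 10 largest losses and gains in CPM, and from each list, with no minimum CPM, the 3 largest changes each way. Uncalled list members may complete a role. Gene types, neighbouring runs, the ribosomal protein sets, Jun, Fos, Myc, Ifngr1, Ifngr2, Gimap6 and Gimap9, and the Irf1 and Socs1 promoters were added after values were seen. Promoters are from RefSeq (GRCm38.p6); printed bases leave out those inside the annotated gene, so the windows of Gimap8 and Gimap3 were passed over and that of Pdzd2 has 98 bases. Same-numbered replicates did not deviate together (correlations -0.0046, -0.0082 and -0.0044). Alternatives were DESeq2 1.42.0, limma 3.58.1 (voom), other scalings and filters, GC or length correction, the 6 libraries alone, a replicate block and leaving out each library. Some tested genes are not reported here.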

Additional observations from a re-analysis of the deposited data

How the results depend on the processing

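All 192 named genes kept their direction under each of the 17 alternatives that could fit them. A call ended for 0 to 3 of them with other tools, scalings, filters or corrections, for 24 at an adjusted p under 0.01, and for 8 to 21 when 1 library was left out. Called genes numbered 2866 with DESeq2 and 2636 with limma-voom. At an adjusted p under 0.01, 1562 were called, 965 higher and 597 lower, of which 36 fell at least 2-fold. With at least 1 CPM required in 3 libraries, which tests fewer genes, 28 falls reached 2-fold. Leaving out 1 library gave 1816 to 2520.0 called genes, 1108 to 1462 higher and 708 to 1058 lower, with 289 to 314 rises and 58 to 86 falls of at least 2-fold. With the replicate number as a block, 2746 genes were called (1525 higher, 1221 lower); the numbers did not pair the samples, and the block ended the call of 2 named genes. Of the 20 largest named falls, 4 lost their call without some library, as did abundant genes with small changes such as Ncl.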
